A study of Mus musculus with 12 samples.

Results

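Germ cells of TAp73 knockout mice were set against germ cells of control mice on 6 of the 12 arrays of the series, 3 for each genotype. The members were the 29019 of 39429 probes that the scanner software marked as well above background on all 3 germ arrays of at least 1 genotype. They stood for 23914 genes, with 1 probe a gene, the probe with the highest mean over the 6 germ arrays. The study measured RNA from the germ and the Sertoli cells of whole testes, removed after carbon dioxide euthanasia, on 1-colour Agilent arrays. All mice were male C57BL/6J. The knockout mice were numbered 120 (4 months old), 86 and 72 (both 8 months), and their label is TAP73 knock-out. The controls were mice 99 (5 months), 73 and 74 (both 8 months). Their source name is wildtype, but only mouse 99 is titled WT, and mice 73 and 74 are titled het. Each array held the germ cell pellet of 1 mouse. The deleted part of the gene, the way the deletion was made and the cell isolation method are not given in the sources used here.

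Trp73 encodes a transcription factor of the p53 family, and TAp73 denotes its isoforms that keep the transactivation domain. Germ cells develop inside the seminiferous tubule, attached to the Sertoli cells that nourish them, and pass from spermatogonia through meiotic spermatocytes to round and elongating spermatids. Between the tubules lie the steroid-producing Leydig cells, macrophages, vessels and fibroblasts, and peritubular myoid cells wrap the tubule. The series title concerns germ cell adhesion and maturation, so the lists used here cover adhesion, proteolysis and germ cell stages beside the p53 family.

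A level is given below as the log2 of the processed signal minus the 75th percentile of its array, so a gene at 0 is as bright as that percentile. A difference is the mean of the knockout arrays minus the mean of the control arrays on this log2 scale, with its standard error (SE) from limma and n = 3 mice per group. A gene "rose" or "fell" where limma's Benjamini-Hochberg adjusted p over the 23914 genes was under 0.05. Levels on the germ arrays are listed in the order of knockout mice 120, 86 and 72 and control mice 99, 73 and 74. Arrays are called apart where all 3 of a genotype lay above all 3 of the other, in lists on the high side unless the low side is named.

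Between 73.3% and 78.9% of probes were well above background on each germ array, no spot was saturated, and the 75th percentile of the signal ran from 3473 to 5350. All 26 markers of spermatocytes, all 19 of round spermatids and all 26 of elongating spermatids were well above background on all 6 germ arrays. Prm1, which encodes a protamine of the sperm nucleus, lay between 6.35 and 6.84. Markers of other testis cells were present too: 21 of 24 Sertoli cell markers on the array were well above background on all 3 control germ arrays, as were 11 of 12 Leydig and 18 of 21 macrophage markers. The germ arrays of knockout mouse 86 and control mouse 99 stood apart from the other 4. They correlated with each other at r = 0.987 over genes, and the first principal component, with 61.8% of the variance, placed them at 56.5 and 86.9 against -51.3 to 0.7 for the others. In 161 genes both read over 2 log2 units below all other germ arrays, and in 0 above. None of those 161 was called between the genotypes. With 1 low array in each genotype a call was hardly possible, so this does not show whether the split affects the calls.

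The Trp73 probes do not show a loss of signal in the arrays labelled knockout. Its probe with the highest level read -1.91, -2.79 and -2.35 in the knockout mice and -4.28, -3.10 and -2.68 in the controls, a difference of 1.005 ± 0.50 (limma, adjusted p 0.778 over all probes kept). The other Trp73 probes differed by 2.86 ± 1.77 and 2.18 ± 1.02, with adjusted p of 0.925 and 0.726 in the same limma fit. All 3 probes were well above background on every knockout array. The control array of mouse 99 was not well above background with either of the other 2 probes. The positions of the probes relative to the deleted part are not known here, so the probes do not check the labels. Trp53, the p53 gene itself, read -2.54, -6.79 and -3.45 in knockout mice and -9.38, -3.79 and -3.46 in controls, a difference of 1.28 ± 1.70 (adjusted p 0.9999 over probes). Its low values are those of mice 86 and 99, whose arrays stood apart. Trp63, the remaining member, differed by -0.02 ± 0.36 on its brighter probe and by 0.17 ± 0.23 on the other, with adjusted p of 0.9999 over probes for both.

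Of 23914 genes, 68 rose in knockout germ cells and 1, the taste receptor gene Tas1r1, fell, so 0.289% of the genes tested were called, 0.284% as higher and 0.00418% as lower. The 68 genes rose by 0.91 to 5.72, with a median of 1.94, and 31 of them by more than 2. The risers with the smallest p encode the adhesion protein Mpzl2, the secreted phosphoprotein osteopontin (Spp1) and the cytokine receptor Tnfrsf12a. The median over all genes was -0.04, with quartiles of -0.22 and 0.20. Without the adjustment, 1480 genes were higher and 305 lower at p under 0.05. The fit took its estimate of the spread from all 12 arrays, those of the Sertoli fraction included. With the 6 germ arrays alone 2 genes rose (Asic2 and Mpzl2), and 54 of the 56 called genes with a usable symbol lost their call. The count of risers also depended on single mice. It was 127 without knockout mouse 120, 2 without mouse 86 and 2 without mouse 72. Leaving out a control gave 4 without mouse 99, 2 without mouse 73 and 30 without mouse 74. Without the germ arrays of mice 86 and 99 the count of risers was 5 (Ccn1, Gpnmb, Mpzl2, Pdpn and Spp1), and Tas1r1 fell in each of these fits. Among the 56 called genes with a usable symbol, Tas1r1, Mpzl2 and Spp1 passed whichever mouse was left out. Each of the other 53 lost its call in at least 3 of these 6 fits, with a highest adjusted p per gene of 0.104 to 0.501 in those limma fits. With the slide as a block, 27 of the 56 lost their call, at adjusted p of 0.0525 to 0.0853 in limma: Gpnmb, Ctsk, Slc15a3, Maf, Tnfsf9, Edn1, Nbl1, Ltbp1, S1pr2, Wfdc18, Prss35, Anxa4, Anxa5, Cyp11a1, Tspo, Shisa4, Mdfic, Plekhh3, Chst8, Clip3, Ahsg, Epdr1, Klhl29, Oaf, Psen2, B4galt1 and Tmbim1.

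**Figure D1:**
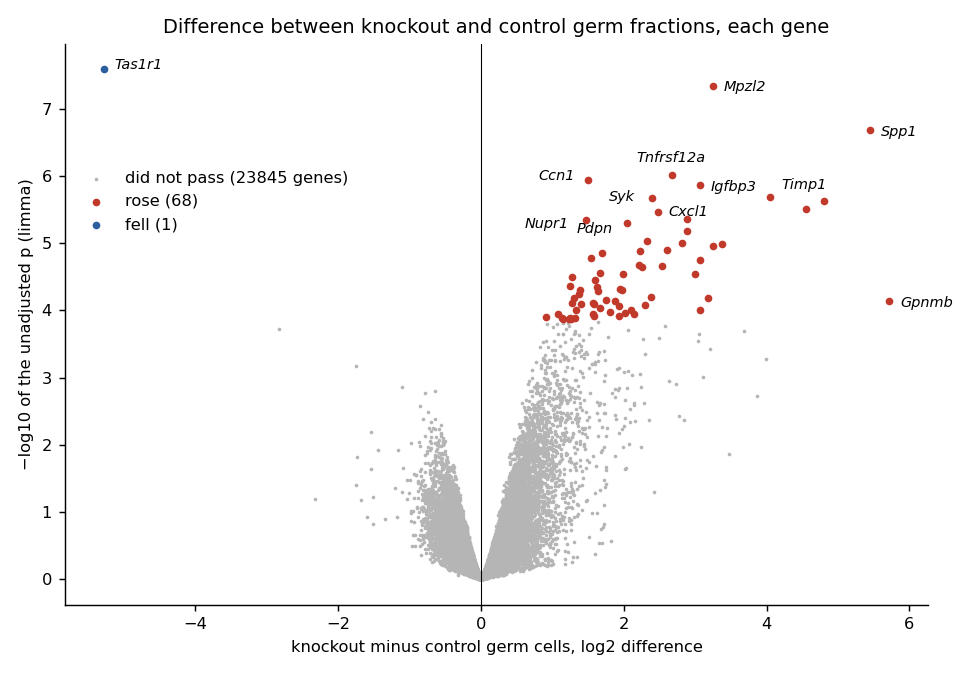
Each point is a gene, placed by its log2 difference between knockout and control germ cells (x axis) and by -log10 of its unadjusted limma p (y axis), with the 68 genes that rose in red, Tas1r1, which fell, in blue and the rest in grey. Tas1r1 lies alone at the left at -5.28, and the risers lie between 0.91 and 5.72.

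Tas1r1 encodes a subunit of the umami taste receptor, a G protein-coupled receptor that also has been found in male germ cells. It read -5.82, -5.63 and -5.12 in knockout germ cells and 0.31, -0.29 and -0.75 in control germ cells. The groups were separated by more than 4 log2 units, with all 6 arrays well above background. The difference was -5.28 ± 0.37 (limma, adjusted p 0.00054), and within the slides, which each carried 1 mouse of either genotype, it was -6.13, -5.34 and -4.38. On the Sertoli arrays Tas1r1 read -6.20, -5.91 and -5.88 in the same knockout mice and -5.95, -6.05 and -4.76 in the controls. The knockout germ arrays lay within the range of the control Sertoli arrays and just above the knockout Sertoli arrays. Between the fractions the knockout effect differed by -4.87 (interaction term in limma, adjusted p 0.0219). Tas1r1 and Trp73 are both on mouse chromosome 4 in RefSeq. A single probe measured it, so no further probe checks the value. Its call was lost with normexp background correction, where the adjusted p was 0.0867.

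Mpzl2 encodes an adhesion protein of the immunoglobulin superfamily that binds its own kind on neighbouring epithelial cells. It read -2.65, -2.26 and -2.20 in knockout germ cells and -5.86, -5.16 and -5.83 in controls. The genotypes did not overlap, and the difference of 3.25 ± 0.24 shared the smallest adjusted p of the limma fit, 0.00054. In the Sertoli fraction Mpzl2 read between -2.49 and -2.02 on all 6 arrays, and the knockout difference there was -0.05 ± 0.24 (adjusted p 0.9995). The effects in the fractions differed by 3.29 (interaction term in limma, adjusted p 0.0219). The call was lost with normexp background correction and without both controls titled het, where it reached an adjusted p of 0.0681 in limma. In that last fit mouse 99 was the only control germ array, assumed to vary like the arrays of the other groups.

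Spp1 encodes osteopontin, a secreted phosphoprotein that binds integrins and that phagocytes release in quantity. It read -2.69, -1.72 and -2.56 in the knockout mice and -6.88, -7.89 and -8.55 in the controls. The difference was 5.45 ± 0.47 (limma, adjusted p 0.00168), and only 1 of the 3 control arrays was well above background. With normexp background correction the difference was 3.24. Spp1 was far brighter on the Sertoli arrays of both genotypes, between 2.44 and 4.03. Timp1, a secreted inhibitor of metallopeptidases, read -0.96, 0.71 and 0.45 in knockout and -3.89, -4.45 and -3.61 in control germ cells. Its difference was 4.05 ± 0.44 (adjusted p 0.00629), and mouse 120 was the lowest of the knockout mice. On the Sertoli arrays Timp1 lay between 5.71 and 7.04.

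Receptors and secreted factors followed in the order of p. Tnfrsf12a, the receptor of the cytokine TWEAK, read -0.68, 0.26 and 0.34 in knockout and -2.56, -2.93 and -2.64 in control germ cells. The difference was 2.68 ± 0.27 (limma, adjusted p 0.00547). Ccn1, a matrix-associated protein made rapidly after growth stimuli, read -0.55, -0.71 and -0.32 against -1.96, -2.08 and -2.06. Its difference of 1.51 ± 0.15 had the smallest SE among the 12 genes of smallest p, and its arrays were apart by more than 1 unit. Igfbp3, which binds insulin-like growth factors in the extracellular space, read -2.76, -2.20 and -1.70 against -5.87, -5.24 and -4.76. The difference was 3.07 ± 0.32 (limma, adjusted p 0.00552), and each slide gave nearly the same value, 3.11, 3.04 and 3.06.

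Cxcl1, a chemokine that attracts neutrophils, read -0.03, 1.16 and 0.94 in knockout and -1.53, -1.88 and -1.96 in control germ cells. The difference was 2.48 ± 0.28 (limma, adjusted p 0.0075). Unlike Spp1 and Timp1, Cxcl1 was dimmer on all 6 Sertoli arrays, between -4.86 and -4.13, than on any germ array. Syk, a tyrosine kinase downstream of immune receptors, read -3.15, -2.25 and -2.35 against -4.75, -5.39 and -4.80. Adam23, a membrane protein of the ADAM family without peptidase activity, read -2.86, -1.53 and -1.57 against -4.67, -5.26 and -4.69. Syk rose by 2.40 ± 0.26 (adjusted p 0.00629 in limma) and Adam23 by 2.89 ± 0.34 (adjusted p 0.00844). In Syk, Adam23 and Cxcl1 mouse 120 was more than 0.7 below the other knockout mice, yet above every control.

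Nupr1, a small nuclear protein induced by stress, read -2.65, -2.18 and -2.50 in knockout and -3.93, -4.01 and -3.82 in control germ cells. Pdpn, the membrane glycoprotein podoplanin, read -1.44, -0.69 and -0.81 against -2.58, -3.36 and -3.15. The differences were 1.48 ± 0.17 for Nupr1 (limma, adjusted p 0.00844) and 2.05 ± 0.24 for Pdpn (adjusted p 0.00871). Control mouse 99 was the highest control for Pdpn and lay 1.14 below knockout mouse 120, its slide partner.

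**Figure D2:**
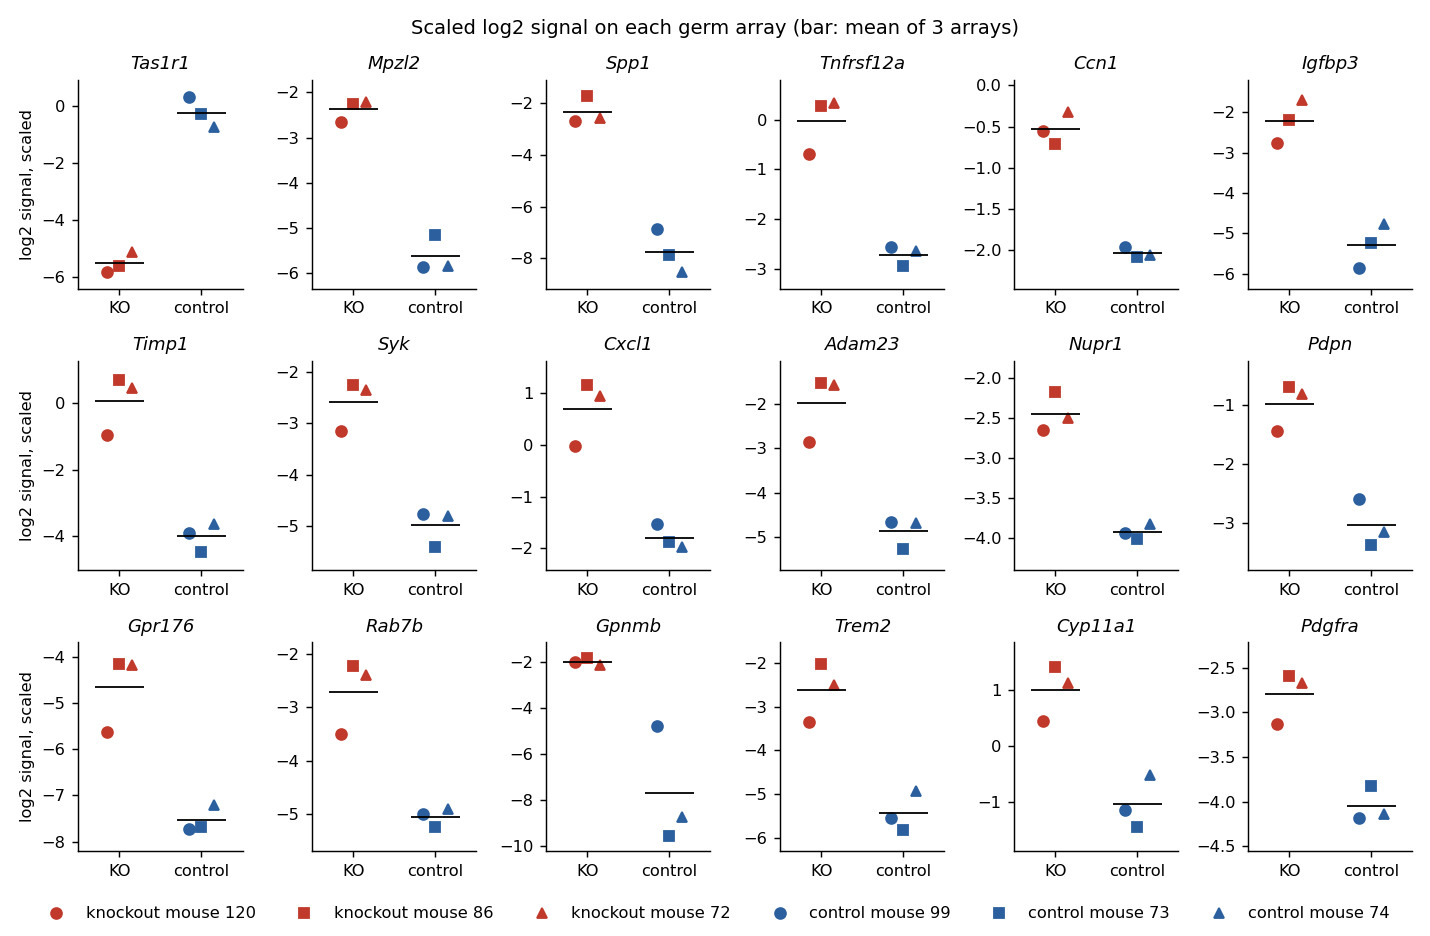
Scaled log2 signal (y axis of each panel, 0 is the 75th percentile of the array) of 18 called genes on the 3 knockout (red) and 3 control (blue) germ arrays, with a symbol for each mouse and a bar at the group mean. No control array overlaps a knockout array in any panel, and Gpnmb shows the widest control group, from -9.55 to -4.76.

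Of the 68 risers, 55 had a usable symbol and 13 were known only by clone or transcript identifiers. Among the 55, 19 stood in at least 1 of the gene lists and 36 in none. Several risers are known from phagocytes. Gpnmb, a membrane glycoprotein of lipid-laden phagocytes and pigment cells, read -1.97, -1.82 and -2.11 in knockout and -4.76, -9.55 and -8.74 in control germ cells, a difference of 5.72 ± 0.92 (limma, adjusted p 0.039). The spread lay in the controls, where only 1 array, that of mouse 99, was well above background, so the size is not well measured. It was 3.40 with normexp background correction and 2.79 against mouse 99 alone, and with the slide as a block the call was lost (adjusted p 0.0532). Trem2, a phagocyte receptor for lipids, rose by 2.81 ± 0.36, Itgax, the integrin chain CD11c, by 2.15 ± 0.36, and Lcp1, an actin bundler of leukocytes, by 2.29 ± 0.37. Slc15a3, a peptide transporter of the lysosome, rose by 1.94 ± 0.33, Rab7b, a GTPase of late endosomes, by 2.33 ± 0.30, and Ctsk, a lysosomal cysteine peptidase, by 1.31 ± 0.21. Maf, a transcription factor used by macrophages and lens among others, rose by 2.10 ± 0.35. The control germ mean minus the control Sertoli mean was negative for all of these, from -9.46 for Gpnmb to -1.30 for Slc15a3. Over the macrophage marker list the median of this value was 1.05. Which cells the RNA of these risers came from was not tested.

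Ligands, receptors and their antagonists were also among the risers. Ccl7, a chemokine for monocytes, was not well above background in any control, and its knockout level was at least 6.36-fold higher (limma, adjusted p 0.0379). For genes in this position the bound sets the knockout mean against the lowest well-measured signal of each control array. Tnfsf9, a ligand of the tumour necrosis factor family, was at least 1.78-fold higher (limma, adjusted p 0.0395), and Gpr176, an orphan G protein-coupled receptor, at least 5.21-fold (adjusted p 0.0107). Wnt10a, a Wnt ligand, rose by 2.60 ± 0.34 and Edn1, the vasoconstrictor endothelin, by 1.75 ± 0.28. Antagonists were among them: Fst, which sequesters activin, rose by 2.22 ± 0.29 and Nbl1, which binds bone morphogenetic proteins, by 1.38 ± 0.21. Ltbp1, which holds latent TGF-beta in the matrix, rose by 1.40 ± 0.23. Receptors that rose included P2ry2 for extracellular nucleotides (1.54 ± 0.21), S1pr2 for sphingosine 1-phosphate (1.08 ± 0.18) and Pdgfra for platelet-derived growth factor (1.25 ± 0.19). Ccn5, a relative of Ccn1, rose by 1.94 ± 0.32.

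Of the peptidases and inhibitors beside Timp1 and Ctsk, Mmp23 rose by 2.53 ± 0.35, Wfdc18, of the WAP family, by 3.06 ± 0.51, and Prss35, of the serine peptidase family, by 1.59 ± 0.27. Hspb8, a small heat shock protein, rose by 3.38 ± 0.43 and Aqp5, a water channel, by 3.07 ± 0.42. Several calcium-dependent or actin-linked proteins rose by less: Anxa4 by 1.31 ± 0.23, Anxa5 by 1.14 ± 0.20 and Cnn3, a calponin, by 1.59 ± 0.24. Tnni1, a troponin subunit of slow muscle, rose by 2.25 ± 0.32. In mitochondria and steroid synthesis, Cyp11a1, the enzyme that turns cholesterol into pregnenolone, rose by 2.02 ± 0.34, Tspo, a mitochondrial membrane protein tied to cholesterol, by 1.14 ± 0.20, and Ldhd, the D-lactate dehydrogenase, by 1.99 ± 0.29. The adjusted p of these 12 genes ran from 0.0136 to 0.0467 in limma.

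The other named risers were Shisa4, Mdfic, Plekhh3, Chst8, Clip3, Ahsg, Epdr1, Klhl29, Oaf, Psen2, B4galt1 and Tmbim1. Ahsg, which encodes the serum glycoprotein fetuin-A, rose by 2.38 ± 0.38 and Psen2, a catalytic subunit of gamma-secretase, by 1.57 ± 0.26. B4galt1, a galactosyltransferase of the Golgi and the cell surface, had the smallest rise, 0.91 ± 0.16, and was higher in knockout cells with only 1 of its 2 probes.

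All 68 risers had their arrays apart, so the knockout was higher on each of the 3 slides, and the smallest within-slide difference was 0.63. The risers were chosen by p from these same arrays, so the separation is no independent check of them. Over all genes tested, 6.7% had the knockout arrays apart on the high side and 9.71% on the low side. Slides differed in size: the median riser was 1.54 higher on slide 1 (mice 120 and 99), 2.40 on slide 2 (mice 86 and 73) and 2.08 on slide 3 (mice 72 and 74). Mouse 120 was the lowest knockout array in 61 of the 68 genes and slide 1 the smallest difference in 52. Mouse 120 was 4 months old and the other knockout mice 8 months, so the age and the mouse cannot be told apart. The highest control was mouse 74 in 39 of the 68, mouse 99 in 22 and mouse 73 in 7. On the control arrays, 51 risers were well above background on all 3 arrays, 11 on 1 or 2 and 6 on none. With the 8-month mice alone, 2 per genotype, 13 genes rose.

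**Figure D3:**
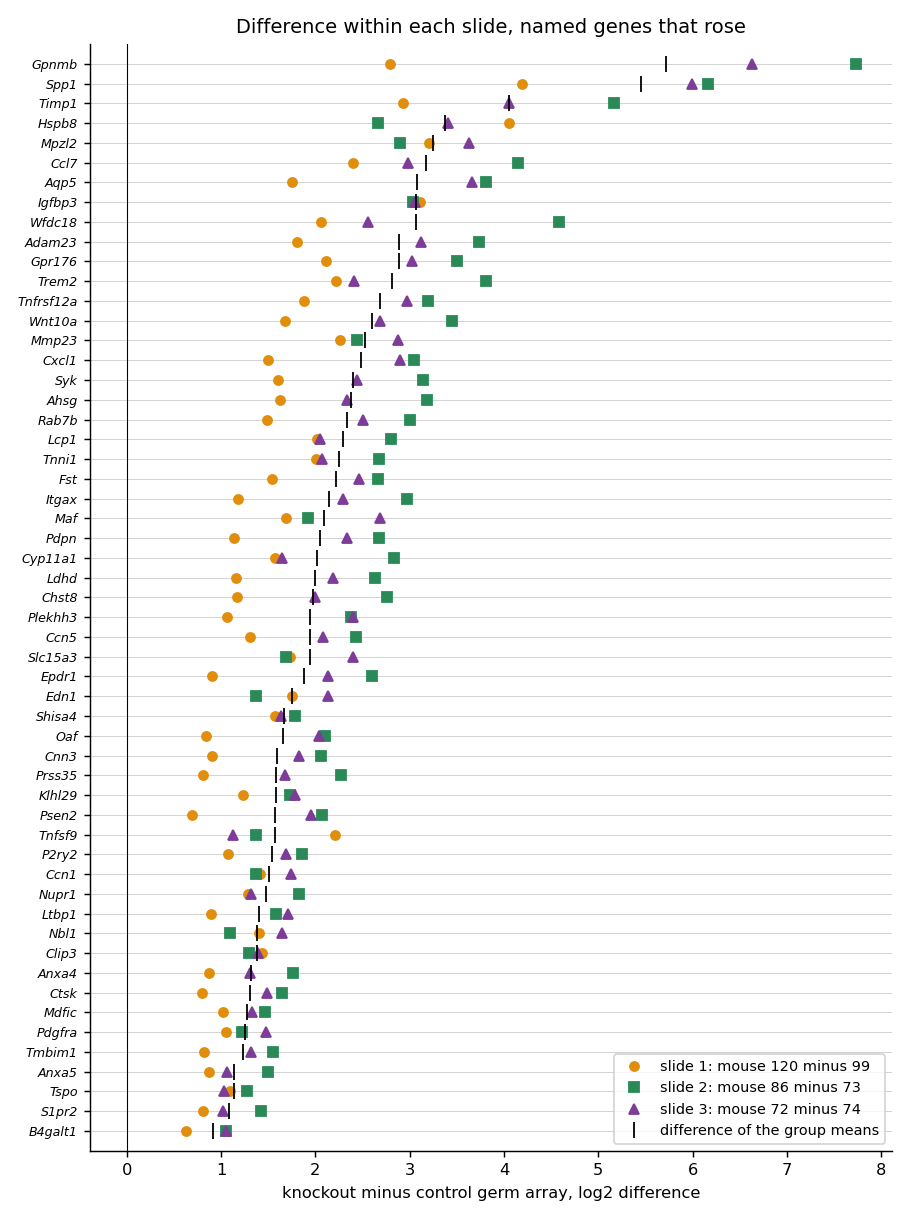
Log2 difference between the knockout and the control germ array of each slide (x axis) for the 55 named genes that rose (y axis), with the difference of the group means as a bar. Every point lies above 0, and slide 1 most often gives the smallest difference.

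The same genes were then read in the Sertoli fraction of the same mice. There 36 of the 68 risers were higher and the others lower in knockout mice, with differences from -0.43 to 0.90 and a median of 0.03. None passed in that fraction, where 2 of them had an unadjusted p under 0.05 in limma and the smallest adjusted p was 0.9995. The test of the difference between the effects passed for Mpzl2 among the risers and for Tas1r1. The next smallest adjusted interaction p among the called genes was 0.0943, so for the other 67 a difference between fractions was not shown. Nearly all named risers were dimmer on control germ arrays than on control Sertoli arrays. The control germ mean minus the control Sertoli mean was -10.80 for Spp1, -10.40 for Timp1 and -0.19 for Cyp11a1. Among the named risers this value was positive only for Cxcl1 (2.90), Ahsg (1.52) and Ldhd (1.02). Nupr1 lay between 5.31 and 5.62 on Sertoli arrays, Pdpn between 5.55 and 5.96 and Gpnmb between 1.67 and 2.19, all above their germ values. By contrast Ldhd lay between -3.56 and -3.05, below all 6 of its germ arrays, and Ahsg between -7.44 and -5.95, also below all of them. Cyp11a1 lay between -1.19 and 0.41 in the Sertoli fraction, below its 3 knockout germ arrays.

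**Figure D4:**
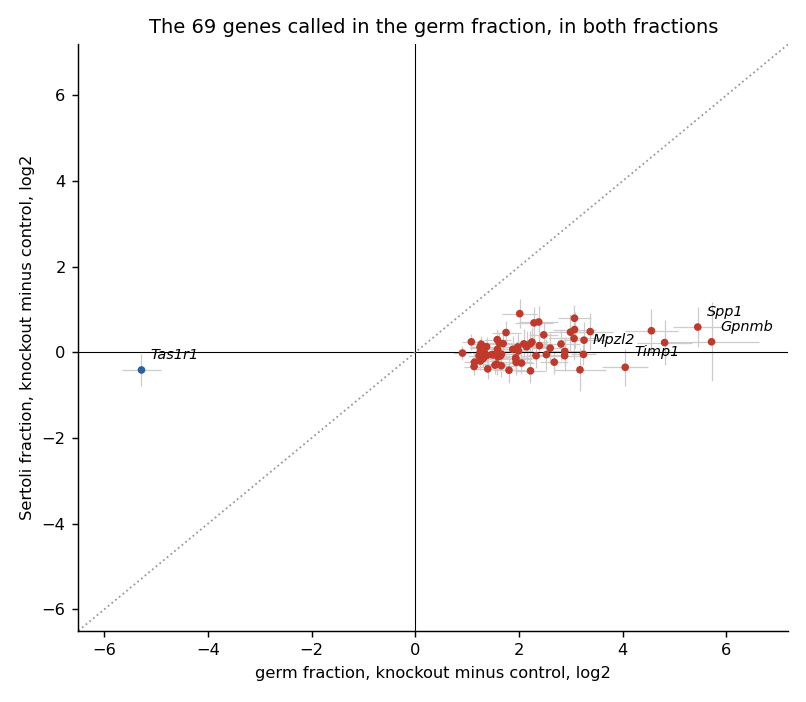
Knockout minus control difference (log2, with SE) of the 69 called genes in the germ fraction (x axis) and in the Sertoli fraction (y axis), with risers in red, Tas1r1 in blue and a dotted line where both would be equal. The germ differences spread from -5.28 to 5.72, while those of the risers in the Sertoli fraction stay between -0.43 and 0.90.

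Germ cell markers were slightly lower in the knockout arrays and none was called. Of 26 elongating spermatid and sperm tail genes 24 were lower, with a median of -0.24 and 9 with arrays apart on the low side. Tssk6, a kinase of late spermatids, read 3.98, 3.98 and 4.14 in knockout and 4.94, 4.39 and 4.54 in control germ cells, a difference of -0.59 ± 0.21 (limma, adjusted p 0.405). Round spermatid and acrosome genes were lower in 18 of 19, with a median of -0.26 and 6 apart on the low side. Spaca1, a protein of the acrosome membrane, differed by -0.42 ± 0.23 (adjusted p 0.817). Among 26 spermatocyte genes 22 were lower (median -0.15, 3 apart on the low side), with Syce2 of the synaptonemal complex at -0.52 ± 0.18 and the cohesin Rec8 at -0.47 ± 0.20. Spermatogonial genes were split, 7 of 14 higher, with a median of -0.01, and Ret and Nanos2 were never well above background in germ cells. Over all genes 55.4% were lower and 9.71% had arrays apart on the low side. The summed signal of the elongating spermatid list, in units of the 75th percentile, was 992 to 1148 in knockout and 1097 to 1312 in control mice, and that of the round spermatid list 248.6 to 273 against 279 to 335. In bulk RNA, fewer cells of a type and less RNA per cell cannot be told apart.

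Most macrophage and Leydig cell markers read higher in the knockout arrays, and 1 of them was called. Macrophage markers were higher in 17 of 20 genes (median 1.15, 12 apart) and none was called. Among all genes tested, 44.6% were higher, 6.7% were apart on the high side and 0.284% rose. Lyz2, the lysozyme of myeloid cells, read -5.22, -4.22 and -4.10 in knockout and -8.64, -7.09 and -5.998 in control germ cells, a difference of 2.73 ± 0.63 (limma, adjusted p 0.145). Tyrobp, the adaptor that carries the Trem2 signal, differed by 2.04 ± 0.48 (adjusted p 0.151), Ctss by 2.15 ± 0.54 (0.192) and Cd14 by 1.24 ± 0.29 (0.151), while Csf1r, the receptor that macrophages need to survive, differed by -0.03 ± 0.24 and Adgre1, the F4/80 antigen, by 0.18 ± 0.47. Cd163 was never well above background in germ cells. The summed macrophage signal was 43.7 to 46.8 in knockout and 47.3 to 57.5 in control mice. Most of it was Aif1, and without Aif1 it was 13.3 to 15.7 against 10.1 to 11.8. By array, the list median lay 0.03, 1.15 and 0.61 above each gene's mean in the knockout mice and -0.75, -0.61 and -0.18 from it in the controls.

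Leydig cell markers were higher in 10 of 11 genes (median 0.94, 4 apart), of which Cyp11a1 rose. All genes tested were higher in 44.6%, apart on the high side in 6.7% and risen in 0.284%. Star, which brings cholesterol into the mitochondrion, read -0.64, 0.65 and -0.29 against -1.58, -2.14 and -1.35, a difference of 1.60 ± 0.33 (limma, adjusted p 0.0934). Hsd17b3, which makes testosterone, differed by 1.35 ± 0.39 (adjusted p 0.265). The summed Leydig signal was 25.6 to 35.0 in knockout and 21.4 to 26.6 in control mice (14.9 to 21.2 against 9.51 to 14.01 without Fdx1, the brightest member), and all 12 markers on the array were well above background on at least 1 germ array. Sertoli markers were higher in 22 of 23 genes (median 0.50, 8 apart, none called), from -0.12 to 1.26, the latter Shbg, a steroid carrier. Their summed signal was 204 to 268 against 164 to 213, and each was well above background somewhere. Whether these cells' RNA has a part in the risers was not tested.

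Fibroblast markers were higher in 11 of 14 genes (median 0.71, 5 apart), with Pdgfra as the call, a summed signal of 39.0 to 61.6 in knockout against 34.4 to 44.3 in control mice, and Col5a2 and Dpt not well above background. Peritubular myoid markers were higher in 8 of 10 (median 0.58), with Smtn, a smooth muscle cytoskeletal protein, at 0.77 ± 0.16 (limma, adjusted p 0.0944), and their sum was 37.0 to 43.9 against 30.1 to 36.7. Without Myl9, the brightest member, the myoid sums overlapped, at 22.3 to 23.5 against 21.4 to 25.1. Endothelial markers were higher in 14 of 15 (median 0.23, 3 apart), with Robo4 at 1.83 ± 0.44 (adjusted p 0.163) and a sum of 10.1 to 12.05 against 8.68 to 9.78. Lymphocyte, mast cell and granulocyte markers had 5 of 12 higher and a median of -0.17, with Cd3g, S100a8 and S100a9 not well above background and a sum of 20.999 to 34.3 against 22.9 to 31.8. Erythrocyte markers had 1 of 5 higher (median -0.11), and 1 of 2 measured epididymal markers was higher. No gene of these last lists was called. Of all genes tested, 44.6% were higher, 6.7% were apart on the high side and 0.284% rose. The part of any of these cells in the risers was not tested.

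Most immune signalling genes read higher in the knockout arrays, with few calls. Chemokines and cytokines were higher in 23 of 26 genes (median 1.08, 14 apart), of which Cxcl1 and Ccl7 rose. Ccl2, the main monocyte chemokine, read -3.88, -1.74 and -2.44 in knockout and -5.004, -5.13 and -4.73 in control germ cells and did not pass (2.27 ± 0.42, limma, adjusted p 0.0667), nor did Cxcl2 (adjusted p 0.054), which was not well above background in any control. Lipid-laden phagocyte genes were higher in all 21 measured (median 0.82, 13 apart), and Spp1, Trem2 and Gpnmb rose. Interferon response genes were higher in all 18 (median 0.61, 4 apart), with Irf8, a factor of myeloid development, at 1.30 ± 0.25 (adjusted p 0.0828). Their median was 0.38 without mouse 86, and by slide it was 0.046, 1.08 and 0.52 on slides 1, 2 and 3. Complement genes were higher in all 12 (median 0.86, 6 apart), with C3 at 2.23 ± 0.49 (adjusted p 0.121). Immediate early genes were higher in 20 of 23 (median 0.75, 8 apart) and Ccn1 rose, while Atf3, a stress-induced factor, differed by 1.27 ± 0.27 (adjusted p 0.108). For comparison 44.6% of all genes were higher, 6.7% apart on the high side and 0.284% rose. In the chemokine and interferon lists, 26 and 18 genes were well above background on all 3 knockout arrays, but 19 and 15 on all 3 control arrays. Some thus entered only through the knockout arrays, so their higher reading was partly fixed by the filter. Of all 23914 genes, 22876 were well above background on all 6 germ arrays, so these shares are not fully alike. These lists share genes and cell types with the macrophage markers above.

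**Figure D5:**
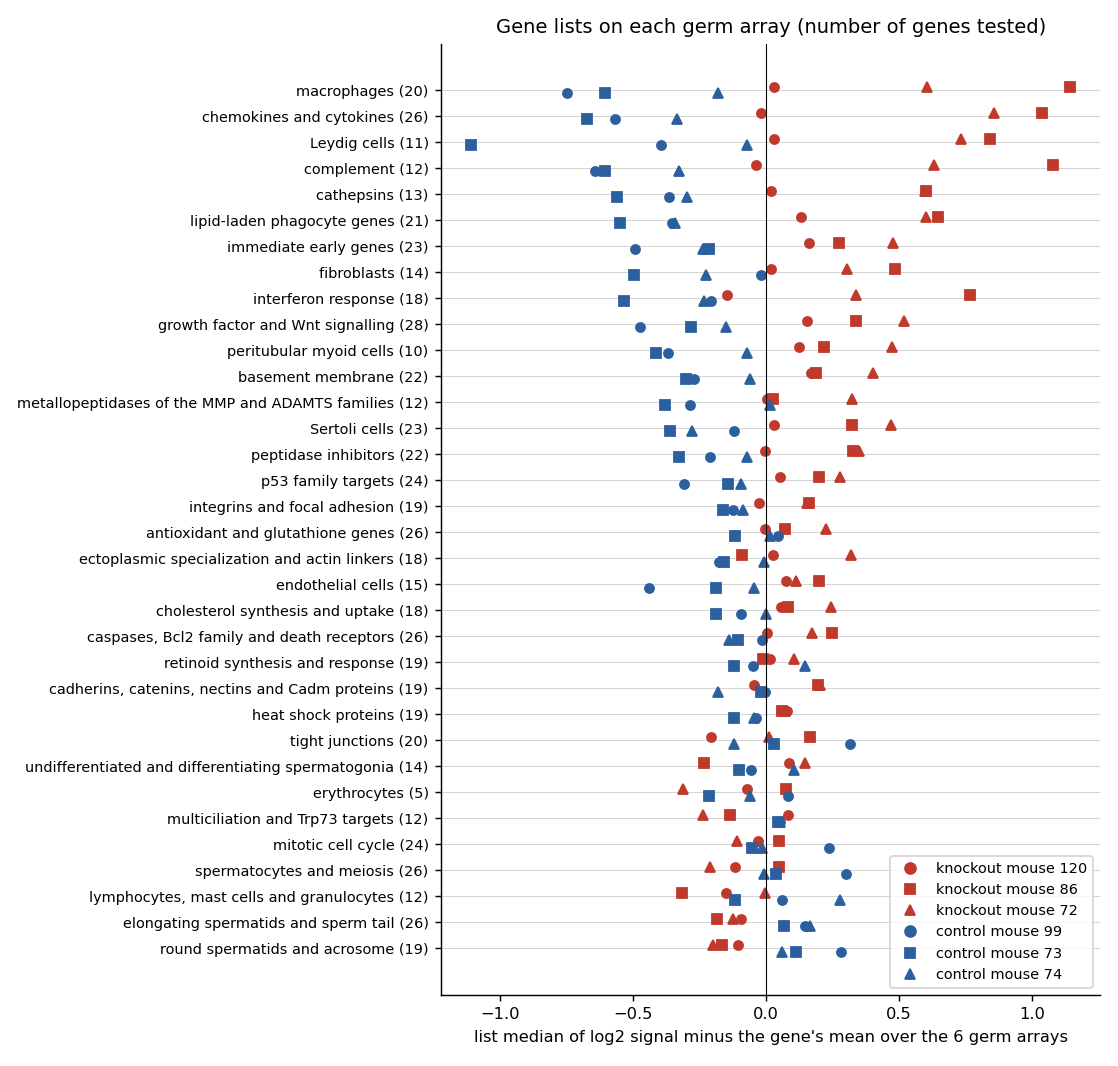
Each point is a germ array, placed by the median over a gene list (y axis, with the number of genes tested) of log2 signal minus that gene's mean over the 6 germ arrays (x axis), with knockout mice in red and controls in blue. Of the lists drawn, Leydig, macrophage, chemokine and complement genes spread widest, with mouse 120 nearest the controls, and the spermatid lists lie lower in the knockout mice.

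Most proteolysis genes also read higher. The shares among all genes tested were 44.6% higher, 6.7% apart on the high side and 0.284% risen. Cathepsins were higher in 12 of 13 genes (median 0.82, 8 apart) and Ctsk rose, while Ctsz (1.08 ± 0.20, limma, adjusted p 0.0602) and Ctsd (0.82 ± 0.16, adjusted p 0.0786) did not pass. Peptidase inhibitors were higher in 18 of 22 (median 0.46, 7 apart), and Timp1 and Wfdc18 rose. Serpina3n, a serpin of the acute phase, read -3.93, -3.17 and -2.79 in knockout and -9.19, -7.67 and -4.64 in control germ cells and did not pass (3.87 ± 0.94, adjusted p 0.174). Matrix metallopeptidases and ADAMTS peptidases were higher in 8 of 12 (median 0.56, 5 apart), with Mmp23 called. Mmp3, Mmp8, Mmp9 and Mmp16 were never well above background in germ cells. Growth factor and Wnt genes were higher in 23 of 28 (median 0.59, 16 apart), and Igfbp3, Wnt10a, Fst and Edn1 rose. Of this list 28 genes were well above background on all 3 knockout arrays and 23 on all 3 control arrays. For peptidase inhibitors the numbers were 22 and 19. Genes that entered only through the knockout arrays had a higher reading partly fixed by the filter.

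Adhesion genes were mixed. Tight junction genes, which seal the blood-testis barrier, had 11 of 20 higher, with 1 apart on the high and 4 on the low side. Over all genes 44.6% were higher, 6.7% were apart on the high and 9.71% on the low side, and 0.284% rose. The tight junction median of 0.01 turned to -0.10 with array median scaling, and on slides 1, 2 and 3 it was -0.58, 0.10 and 0.13. Cldn3, a claudin of that barrier, read -0.98, -0.66 and -1.50 in knockout and 0.14, -0.19 and -0.63 in control germ cells, a difference of -0.82 ± 0.36 (limma, adjusted p 0.655). The list of cadherins, catenins, nectins and Cadm proteins was higher in 12 of 19 (median 0.11, 4 apart), and the median was -0.0035 with array median scaling. Its call was Mpzl2, an adhesion protein also put on this list that belongs to none of the families named. Cdh1, E-cadherin, differed by 1.06 ± 0.29 (adjusted p 0.241). Ectoplasmic specialization genes, the actin-linked junctions between Sertoli cells and spermatids, were higher in 13 of 18 (median 0.24, 4 apart), with Ezr, which links actin to the membrane, at 1.15 ± 0.26 (adjusted p 0.133). Their median was 0.096 without mouse 99, 0.14 without mouse 72 and 0.12 with array median scaling. Integrin and focal adhesion genes were higher in 13 of 19 (median 0.38, 6 apart), with Itgav at 1.10 ± 0.21 (adjusted p 0.0776). Basement membrane genes were higher in 16 of 22 (median 0.56, 8 apart), with the collagen Col4a1 at 0.92 ± 0.20 (adjusted p 0.106). In the last 3 lists no gene was called.

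Targets of the p53 family were higher in 21 of 24 genes (median 0.42, 7 apart) and none was called. For comparison 44.6% of all genes were higher, 6.7% were apart on the high side and 0.284% rose. Of these targets 21 were dimmer on control germ than on control Sertoli arrays (limma, adjusted p under 0.05). Phlda3, an inhibitor of Akt signalling, differed by 1.24 ± 0.30 (limma, adjusted p 0.164), the death receptor Fas by 1.87 ± 0.46 (0.175) and Cdkn1a, the cell cycle inhibitor p21, by 0.65 ± 0.19 (0.303). Multiciliation genes, which TAp73 controls in airway and brain epithelium, had 3 of 12 higher and a median of -0.12. Deup1, needed for centriole amplification, differed by -0.52 ± 0.23 (adjusted p 0.649) and Rfx3, a ciliary transcription factor, by -0.50 ± 0.25 (adjusted p 0.764). Caspase, Bcl2 and death receptor genes were higher in 17 of 26 (median 0.19, 9 apart), with Tnfrsf12a as the call, and Casp8 differed by 1.40 ± 0.27 (adjusted p 0.0776).

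Metabolic and housekeeping lists lay closer to 0. The shares over all genes were 44.6% higher, 6.7% apart on the high side and 0.284% risen. Heat shock proteins were higher in 12 of 19 (median 0.08, turning to -0.04 with array median scaling), and Hspb8 rose. Cholesterol genes were higher in 13 of 18 (median 0.22, 1 apart), antioxidant genes in 16 of 26 (median 0.27, 5 apart) and retinoid genes in 12 of 19 (median 0.13, 2 apart on either side), with no call. Gpx3, a secreted glutathione peroxidase, differed by 2.15 ± 0.60 (limma, adjusted p 0.246). Mitotic genes had 9 of 24 higher, a median of -0.13 and none apart.

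Beside Tas1r1 no gene was called lower. Pla2g2e, a secreted phospholipase, read -8.28, -8.61 and -6.74 in knockout and -4.83, -4.41 and -5.93 in control germ cells, a difference of -2.83 ± 0.51 (limma, adjusted p 0.0568). Only 1 of its 3 knockout arrays was well above background, and its other probe differed by -0.22. Cd276, an immune checkpoint protein, differed by -1.75 ± 0.37 (adjusted p 0.104), Lypla1, a thioesterase, by -0.78 ± 0.19 (0.164) and Srgap1, a GTPase-activating protein, by -0.86 ± 0.22 (0.201). Tspan6, Nqo2, Inpp5j, Noxred1 and Isca1 differed by -0.75 to -0.56, with adjusted p of 0.225 to 0.275. In all 9 the arrays were apart on the low side, but these genes were chosen for a small p on the same arrays. Over all genes 9.71% were apart on the low side.

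Promoter windows were read for the risers from the RefSeq promoter table (build GRCm38.p6), which held 56 windows for 45 of the 55 named risers, each from 250 bases before to 50 after a gene's start. The motif of AP-1, TGANTCA on either strand, was in 3 riser windows (5.36%), those of Gpnmb, Trem2 and Itgax, and in 5.95% of the windows of all tested genes. NF-kB motifs were in 6 of the 56, against 10.3% of the windows of tested genes, and a CArG box in 1 (1.79%, Anxa5), against 1.43%. A pair of p53 family half-sites was in 0 riser windows, against 0.0452%. That motif is too rare for 56 windows to compare. The AP-1, NF-kB and CArG box shares of the risers were close to those of all tested genes. The windows of the gene that fell and of 3 risers are shown: Tas1r1 as the gene that fell, and Gpnmb, Trem2 and Cxcl1 as the phagocyte glycoprotein, phagocyte receptor and chemokine named above. Capitals mark AP-1 in Gpnmb and Trem2 and 2 overlapping NF-kB matches in Cxcl1, and the Tas1r1 window held none of these motifs.
Tas1r1 (chr4:152038441-152038740, minus strand): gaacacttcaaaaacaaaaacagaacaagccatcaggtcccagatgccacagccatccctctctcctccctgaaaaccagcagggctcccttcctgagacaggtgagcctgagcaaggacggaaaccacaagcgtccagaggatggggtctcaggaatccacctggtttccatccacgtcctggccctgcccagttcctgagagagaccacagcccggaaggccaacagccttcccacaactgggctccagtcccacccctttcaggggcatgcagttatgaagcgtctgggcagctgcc
Gpnmb (chr6:49036268-49036567, plus strand): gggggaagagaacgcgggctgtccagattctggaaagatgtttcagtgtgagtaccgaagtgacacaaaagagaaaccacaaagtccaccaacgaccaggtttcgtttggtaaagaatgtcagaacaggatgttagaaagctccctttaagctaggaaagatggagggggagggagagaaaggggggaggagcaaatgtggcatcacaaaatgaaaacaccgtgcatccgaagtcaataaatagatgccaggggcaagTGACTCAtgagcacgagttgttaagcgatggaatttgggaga
Trem2 (chr17:48346151-48346450, plus strand): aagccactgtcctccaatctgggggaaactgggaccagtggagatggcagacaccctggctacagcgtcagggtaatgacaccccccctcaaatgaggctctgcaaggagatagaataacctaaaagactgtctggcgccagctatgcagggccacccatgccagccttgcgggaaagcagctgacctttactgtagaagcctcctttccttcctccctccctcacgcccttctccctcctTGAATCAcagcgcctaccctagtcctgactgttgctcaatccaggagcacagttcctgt
Cxcl1 (chr5:90890995-90891294, plus strand): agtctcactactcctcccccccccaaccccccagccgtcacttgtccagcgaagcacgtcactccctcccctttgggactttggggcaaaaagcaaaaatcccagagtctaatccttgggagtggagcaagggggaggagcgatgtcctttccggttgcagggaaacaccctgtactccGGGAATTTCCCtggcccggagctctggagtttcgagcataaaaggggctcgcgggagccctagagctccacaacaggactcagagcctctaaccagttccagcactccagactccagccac
Counted from the start, with negative positions before it, the AP-1 match begins at 9 in Gpnmb and at -9 in Trem2, and the first NF-kB match begins at -71 in Cxcl1. A match is a string of letters and was not tested as a binding site.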

How the data were processed

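Scanner files of 12 Agilent arrays with 1 colour (6 germ, 6 Sertoli) held intensity values per spot, made with Agilent Feature Extraction 10.7.3.1 (grid build mm9), background-subtracted within each array, per the file headers. RNA was taken up in Trizol and Cy3-labelled, per the labels' protocols, although the label field says biotin. The authors' deposited log2 table, with nearly equal column medians and a normalization not given in the sources used here, served as an alternative, and the submitters' processing notes name limma. Control and outlier spots were left out, spots of a probe averaged, and log2 processed signal minus the array's 75th percentile was fitted with limma 3.58.1 (R 4.3.3) as 4 group means over 12 arrays, with 8 residual degrees of freedom and Benjamini-Hochberg adjustment. The number of arrays limits the precision. Mice are the replicates. The comparison, the 36 gene lists and the members were chosen with earlier results of these data known.

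Probes were named through RefSeq (GRCm38.p6) for 26055 of 39429, and the rest kept the file's name. Named were all called genes with a symbol, array values being given for the 12 with the smallest p and all that fell, up to 10 lower genes that did not pass, called members or up to 4 members of smallest p of each list, and the p53 family. Array values of Gpnmb and of list members, the level of Prm1 and the differences of Csf1r and Adgre1 were added after their values were seen. The normexp alternative (offset 50) used median spot signals. Both fractions of a mouse come from 1 animal, and their deviations from group means correlated between -0.15 and 0.47. The fit was tested on simulated data, with normal noise of each gene's spread. It called 30% of changes of 1 log2 unit, 72% of 2, 86% of 3 and 100% of 4, and 11 unchanged genes. Smaller changes were not simulated, so a gene or list without a call may still differ.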

Additional observations from a re-analysis of the deposited data

Results flagged for a closer look

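In 2 genes the knockout effect in germ cells differed from that in the Sertoli fraction of the same mice, by the interaction term of the limma fit over 23914 genes. Tas1r1 fell in germ cells of all 3 knockout mice and differed by -0.41 ± 0.37 in the Sertoli fraction, so the effects differed by -4.87 (adjusted p 0.0219). Mpzl2 rose in germ cells of all 3 knockout mice and differed by -0.05 ± 0.24 in the Sertoli fraction, so the effects differed by 3.29 (adjusted p 0.0219). With 3 arrays per group no array was tested as an outlier.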

How the results depend on the processing

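The count of 68 risers became 3 with normexp background correction, 30 with array median scaling, 27 with no filter, 39 with probes well above background on all 6 germ arrays, 2 (Asic2 and Mpzl2) in the 6 germ arrays alone, 43 with slide as a block, 0 without both controls titled het (1 control germ array left, assumed to vary like the other groups), 13 in the 8-month mice and 5 without the germ arrays of mice 86 and 99, the last chosen after seeing the data. Leaving out 1 mouse gave 2 to 127. Where the count was 0, 4356 genes had an unadjusted p under 0.05 in limma. The count of genes that fell was 0 with normexp, where 793 genes in either direction had an unadjusted p under 0.05 in limma, and 2 with array median scaling (with Pla2g2e), quantile normalization and the authors' deposited table (both with an unnamed transcript), and 1 otherwise. With the mouse as a replicate block 65 genes rose and 1 fell, 64 and 1 of them shared, so the paired fit moved neither count by over 1.5 times. Quantile normalization gave 74 risers (49 shared), the authors' deposited values gave 72 (47), the mean of probes gave 83 (64), every probe 64 and the probe chosen over 12 arrays 68. Array median scaling put the median of all genes at -0.16. Over the alternatives with a test, the 56 named calls kept the threshold in 501 of 1164 cases and lost it in 663, and 0 changed direction. All called genes had their germ arrays apart, so leaving out mice or fitting the germ arrays alone could not change a direction. With normexp the differences of 15 of the 56 shrank by over 1.5 times, and with the mean of probes that of B4galt1 fell to 0.38.

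List medians that moved by more than the spread between mice were, with array median scaling, round spermatids -0.38, elongating spermatids -0.36, integrins 0.27, p53 targets 0.30, multiciliation -0.24, caspases 0.073, heat shock -0.042, cholesterol 0.10, antioxidant 0.15 and retinoid genes 0.015. Quantile normalization gave -0.15, -0.12 and 0.23 for round spermatids, elongating spermatids and heat shock, and the authors' table -0.15, -0.12 and 0.22. Normexp gave epididymis 0.15, integrins 0.25, metallopeptidases 0.21 and immediate early genes 0.59. Without the germ arrays of mice 86 and 99, elongating spermatids were at -0.19, integrins at 0.23 and heat shock at 0.14. Leaving out 1 mouse gave ranges of -0.31 to -0.17 for round and -0.31 to -0.23 for elongating spermatids, 0.62 to 1.46 for Leydig, 0.22 to 0.46 for endothelial and 0.37 to 0.82 for myoid cells, -0.27 to 0.10 for erythrocytes, -0.037 to 0.21 for cadherins, 0.12 to 0.33 for integrins, 0.40 to 0.59 for basement membrane, 0.29 to 0.59 for metallopeptidases, 0.99 to 1.53 for chemokines, 0.59 to 1.29 for complement, 0.71 to 1.05 for phagocyte genes, 0.44 to 0.87 for immediate early genes, -0.24 to -0.12 for multiciliation, 0.079 to 0.25 for caspases, 0.061 to 0.14 for heat shock, 0.024 to 0.47 for cholesterol, 0.10 to 0.37 for antioxidant, 0.018 to 0.30 for retinoid genes and -0.15 to 1.34 for the 3 p53 family genes. Medians of other lists that moved by less than that spread but by over 1.5 times ran, without 1 mouse, from 0.096 to 0.27 for ectoplasmic specialization, 0.38 to 0.83 for interferon response, -0.25 to -0.10 for spermatocytes, 0.0055 to 0.12 for spermatogonia, -0.15 to 0.17 for tight junctions, -0.27 to -0.0047 for lymphocytes, 0.33 to 0.60 for epididymis and -0.19 to -0.049 for mitotic genes. The cause of these shifts was not tested. The 6 risers dim in all controls have only lower bounds.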
